A study of Spodoptera frugiperda with 15 samples.

Results

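The antioxidant genes of the fall armyworm, *Spodoptera frugiperda*, a moth whose larvae feed on maize and other crops, were followed across 4 insecticide treatments. They were chosen by their descriptions in the deposited table, as genes described as superoxide dismutase, catalase, peroxiredoxin, thioredoxin, glutathione peroxidase, peroxidase, ferritin or glutaredoxin, with glutathione S-transferases left out. The choice used no measured value, though earlier results of these data were known when it was made, and gave 90 of the 20784 genes in the table. RNA-seq was made from whole bodies of wild-type insects in 15 libraries, 3 for each of 5 groups, which were a control, emamectin benzoate, tetrazolidamide, cyantraniliprole and spinetoram. Emamectin benzoate, an avermectin, opens chloride channels gated by glutamate. Cyantraniliprole, a diamide, opens the ryanodine receptor, and spinetoram, a spinosyn, targets nicotinic acetylcholine receptors. Tetrazolidamide is known here by that name only. The labels give neither what the control received nor the dose, exposure time, age, stage or sex of the insects, so all that the groups are known to share is the wild-type genotype and the whole-body sample. Nor do they tell if the 3 libraries of each group are separate animals. The p-values therefore set the differences between groups only against the spread between these samples, which may be technical.

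Aerobic cells remove superoxide with superoxide dismutases, which turn it into hydrogen peroxide, and remove the peroxide with catalases and thiol or heme peroxidases. Peroxiredoxins and some glutathione peroxidases are reduced again by thioredoxin, which thioredoxin reductase recharges with NADPH. In *Drosophila*, which has no glutathione reductase, the thioredoxin system also keeps glutathione reduced. Ferritin stores iron in a form that cannot feed the reactions that make hydroxyl radicals, and glutaredoxins use glutathione to reduce protein thiols or carry iron-sulphur clusters. Descriptions in the table rest on similarity to other species, and the words thioredoxin and glutaredoxin also took in proteins that only contain such a domain.

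By role the 90 genes comprised 22 catalases, 20 thioredoxin-related genes, 19 heme and other peroxidases, 7 peroxiredoxins, 6 superoxide dismutases, 6 glutaredoxins, 5 ferritins, 2 glutathione peroxidases, 2 thioredoxin reductases and 1 copper chaperone for superoxide dismutase. Totals per library ran from 50600821 to 77183281 estimated count units, at about 3.9 units for 1 read pair. Of the 90 genes, 55 had counts in all 15 libraries and 13 had none in any, which allows up to 0.0119 CPM (3 read pairs over the 15 libraries, for counting error only). Those 13 were 7 catalases and 6 peroxidases. Enough counts for a test were present for 71 of the 90, and for 15505 genes in all.

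On the FPKM scale, which corrects for gene length as the authors computed it, the highest mean over the 15 libraries belonged to thioredoxin-2 (LOC118276632, 619.9 FPKM) and catalase (LOC118262513, 613 FPKM). They were followed by the other gene described as thioredoxin-2 (LOC118276635, 286 FPKM), a ferritin subunit-like gene (LOC118278734, 273 FPKM), a ferritin lower subunit gene (LOC118278733, 255 FPKM), peroxiredoxin 1 (LOC118262554, 247 FPKM) and superoxide dismutase [Cu-Zn] (LOC118276181, 225 FPKM). A mean of at least 100 FPKM was reached by 12 of the 90 genes, 21 lay between 10 and 100, 21 between 1 and 10, and 36 under 1. The median coefficient of variation within groups was 10.8% for the genes at 100 FPKM or more and 82.8% for the tested genes under 1 FPKM. Among the former it ran from 5.39% for LOC118271586 to 25.7% for catalase LOC118262513. Summed over the 90 genes, FPKM was 3111, 3350 and 4096 in the control libraries, and 4159, 4273 and 4501 with emamectin benzoate. It was 4172, 4121 and 3270 with tetrazolidamide, 4459, 4292 and 4486 with cyantraniliprole, and 3991, 4212 and 3711 with spinetoram. In that sum the emamectin benzoate and cyantraniliprole libraries were above all 3 controls, and the tetrazolidamide and spinetoram libraries overlapped them.

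**Figure D1:**
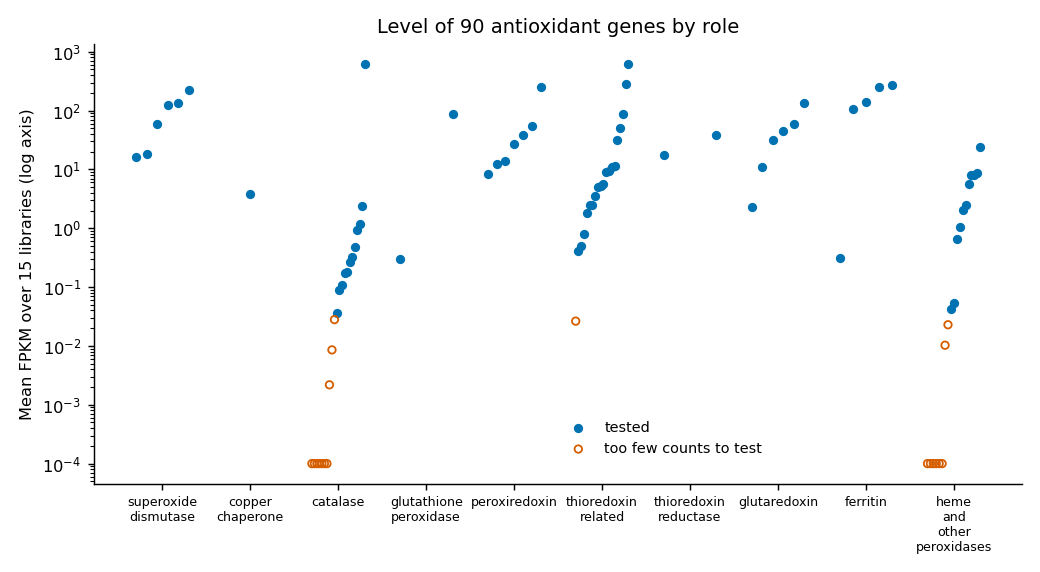
Mean FPKM over 15 libraries (log axis) of each of the 90 antioxidant genes by role, filled where the gene had enough counts to be tested and open where it had not. Catalase and the peroxidases span the widest range, from genes listed at the placeholder of 0.0001 FPKM up to 613 FPKM for the 1 abundant catalase.

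Against control, a gene was called at a Benjamini-Hochberg adjusted p under 0.05 in edgeR's quasi-likelihood test over all 15505 genes (two-sided). Emamectin benzoate had 10 of the 71 antioxidant genes called, 7 higher and 3 lower, where 4.09% of all tested genes were called (2.31% higher and 1.78% lower). Tetrazolidamide had 16 called, 11 higher and 5 lower, against 22.3% of all tested genes (10.9% higher and 11.4% lower). Cyantraniliprole had 6 called, 4 higher and 2 lower, against 2.62% of all (1.99% higher and 0.626% lower), and spinetoram had 7, 6 higher and 1 lower, against 4.01% (2.89% higher and 1.12% lower). At least 1 of the 4 comparisons called 23 of the 71, where 24.9% of all tested genes were so called, and the test for a difference anywhere among the 5 groups called 17 of the 71, against 22.2% of all. The 4 comparisons share the same 3 control libraries. Of the 23 genes, 15 were higher and 8 were lower wherever they were called, and none went both ways.

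The median log2 fold change over the 71 genes lay near that of all tested genes, at 0.03 against 0.02 with emamectin benzoate, -0.17 against -0.07 with tetrazolidamide, -0.10 against -0.03 with cyantraniliprole and 0.07 against -0.02 with spinetoram. All 3 treated libraries lay above all 3 controls for 20, 15, 17 and 14 of the 71 genes, in the same order of treatments. They lay below all 3 controls for 10, 17, 10 and 4. Of all 15505 tested genes, 2113, 2823, 2057 and 1803 were so separated above control and 1805, 2858, 1564 and 1544 below. In either direction these were 25.3%, 36.6%, 23.4% and 21.6% of all tested genes. By level, calls were made for 7 of the 12 genes at 100 FPKM or more, 6 of the 21 between 10 and 100, 9 of the 21 between 1 and 10, and 1 of the 17 tested under 1. The shares of all tested genes called at those levels were not computed, so these counts show no trait of the antioxidant genes. The counts rest on few libraries. Without emamectin benzoate 3 none of the antioxidant genes was called for emamectin benzoate (16 at an unadjusted p under 0.05), and 3 or 4 were called without emamectin benzoate 1 or 2 or without control 1 or 2. The tetrazolidamide count fell to 10 without control 2 or tetrazolidamide 1, and the spinetoram count to 1, 3 and 2 without control 2, spinetoram 1 and spinetoram 2. The cyantraniliprole count fell to 3 without control 2, emamectin benzoate 1, emamectin benzoate 2, tetrazolidamide 1, tetrazolidamide 3, cyantraniliprole 1, cyantraniliprole 3 or spinetoram 1. A fit of only the 2 groups compared called 0, 9, 0 and 0 antioxidant genes in edgeR, with 22, 26, 17 and 11 at an unadjusted p under 0.05, and DESeq2 on all groups called 16, 27, 13 and 13.

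**Figure D2:**
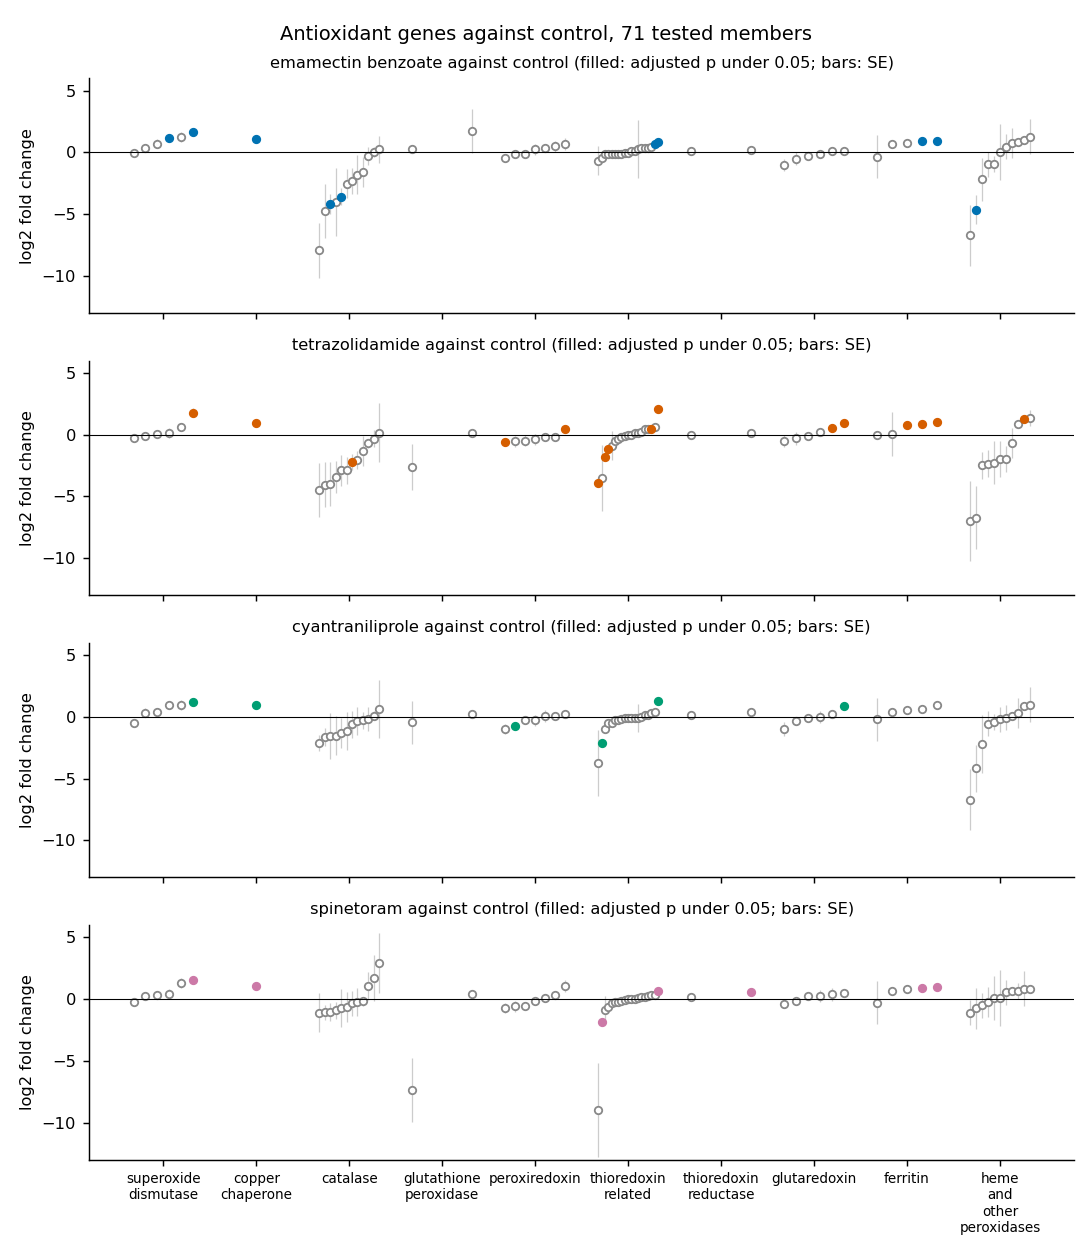
Log2 fold change against control of the 71 tested antioxidant genes by role, 1 panel per treatment, with standard errors as bars and filled points where the adjusted p was under 0.05. Filled points above 0 appear in every role except catalase and glutathione peroxidase. The filled points furthest below 0 are a peroxidase (LOC118269934, -4.65) and a catalase-like gene (LOC118262151, -4.17) with emamectin benzoate.

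The copper chaperone for superoxide dismutase (LOC118280955), which loads copper into Cu-Zn superoxide dismutase, was higher with all 4 treatments. Its libraries stood at 5.34, 2.82 and 4.22 CPM in control and 8.31, 8.898 and 8.97 with emamectin benzoate. Tetrazolidamide gave 8.92, 6.75 and 7.86, cyantraniliprole 6.92, 7.75 and 9.01 and spinetoram 9.17, 9.38 and 7.51 CPM. All 12 treated libraries lay above the highest control. The share of all tested genes with that pattern was not computed, here or for the genes below, and all treatments share the same control libraries. The log2 fold change was 1.08 (SE 0.22, adjusted p = 0.0239) with emamectin benzoate, 0.93 (SE 0.21, adjusted p = 0.00943) with tetrazolidamide, 0.93 (SE 0.21, adjusted p = 0.0435) with cyantraniliprole and 1.07 (SE 0.22, adjusted p = 0.0232) with spinetoram. The tetrazolidamide call was kept when any 1 library was left out. The call for emamectin benzoate ended without emamectin benzoate 1, 2 or 3 (adjusted p = 0.0507 to 0.1), that for spinetoram without control 2 or spinetoram 1 or 2 (adjusted p = 0.0625 to 0.0718), and that for cyantraniliprole without any 1 library other than control 1 and spinetoram 3 (adjusted p = 0.0512 to 0.152).

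Of the 6 superoxide dismutases, 3 were called in at least 1 treatment, all of them Cu-Zn-like genes and all upward. Of all tested genes, 24.9% were called in at least 1 of the 4 comparisons with control. With so few genes in a role, such counts show no trait of that role. LOC118268790 (table position NC_049721.1:2383296-2384059, minus strand, on a genome build not given in the sources used here) stood at 20.2, 28.1 and 16.7 CPM in control and 59.9, 56.1 and 85.9 with emamectin benzoate. It was at 38.9, 27.8 and 33.6 with tetrazolidamide, 46.9, 46.5 and 58.7 with cyantraniliprole and 62.2, 83.6 and 42.2 with spinetoram. With emamectin benzoate, cyantraniliprole and spinetoram its 3 libraries lay well above the controls, and with tetrazolidamide they overlapped them. The log2 fold changes were 1.64 (SE 0.28, adjusted p = 0.014), 1.23 (SE 0.27, adjusted p = 0.0387) and 1.53 (SE 0.28, adjusted p = 0.0159) for the former 3, and 0.63 (SE 0.27, adjusted p = 0.118) for tetrazolidamide, which did not pass. In whole bodies, more cells that express a gene and more RNA per cell cannot be told apart, here and for every gene below. LOC118266989 stood at 79.2, 79.8 and 114 CPM in control and 239, 173 and 195 with emamectin benzoate. The tetrazolidamide values were 76.9, 103 and 72.9, those of cyantraniliprole 209, 139 and 179 and those of spinetoram 132, 137 and 82.6 CPM. Emamectin benzoate and cyantraniliprole lay above control in every library, and tetrazolidamide and spinetoram overlapped it. It was called with emamectin benzoate only, at 1.15 (SE 0.25, adjusted p = 0.0294), and with cyantraniliprole it was at 0.95 (SE 0.25, adjusted p = 0.0637).

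LOC118267230 lies 13196 bp from LOC118266989 on the other strand of the same chromosome, with 1 gene between them, and stood at 6.91, 9.61 and 9.57 CPM in control and 11.3, 10.7 and 20.7 with emamectin benzoate. With tetrazolidamide the level was 35.8, 29.9 and 24.8, with cyantraniliprole 9.696, 10.7 and 12.8 and with spinetoram 9.23, 19.5 and 5.95 CPM. The tetrazolidamide libraries were above all 12 others, at 1.79 (SE 0.39, adjusted p = 0.00687) on the log2 scale, while those of emamectin benzoate and cyantraniliprole lay just above control with no call and those of spinetoram overlapped it. The neighbours thus differed in direction between tetrazolidamide and the mean of the other 3 treatments, at -0.93 (SE 0.21, adjusted p = 0.0103) for LOC118266989 and 1.3 (SE 0.29, adjusted p = 0.00911) for LOC118267230. The abundant superoxide dismutase [Cu-Zn] (LOC118276181) stood at 210.2, 237 and 229 CPM in control and 270.2, 287 and 313 with emamectin benzoate. Levels of 249, 233 and 217 were found with tetrazolidamide, 279, 304 and 285 with cyantraniliprole and 287, 293 and 229 with spinetoram. Its emamectin benzoate and cyantraniliprole libraries lay above every control. The gene passed no test against control, with log2 fold changes from 0.05 to 0.37. Neither did the mitochondrial manganese enzyme (LOC118271586), from -0.52 to -0.04, nor the Cu-Zn-like LOC118268791, at 1.27 (SE 0.41, adjusted p = 0.106) with emamectin benzoate. The emamectin benzoate and cyantraniliprole libraries of LOC118268791 also lay above every control. Its spinetoram libraries, at 24.3, 26.2 and 8.16 CPM, overlapped control. Calls ended for LOC118268790 with emamectin benzoate without emamectin benzoate 3 (adjusted p = 0.0672) and with cyantraniliprole without any 1 library other than emamectin benzoate 3, tetrazolidamide 2, spinetoram 2 and spinetoram 3 (adjusted p = 0.0523 to 0.122), and for LOC118266989 without control 1 or 2 or emamectin benzoate 1 or 3 (adjusted p = 0.0794 to 0.108). Against the other treatments they ended for LOC118266989 without tetrazolidamide 1 or 3 (adjusted p = 0.0523 to 0.058), and for LOC118267230 without tetrazolidamide 1 (adjusted p = 0.0548).

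**Figure D3:**
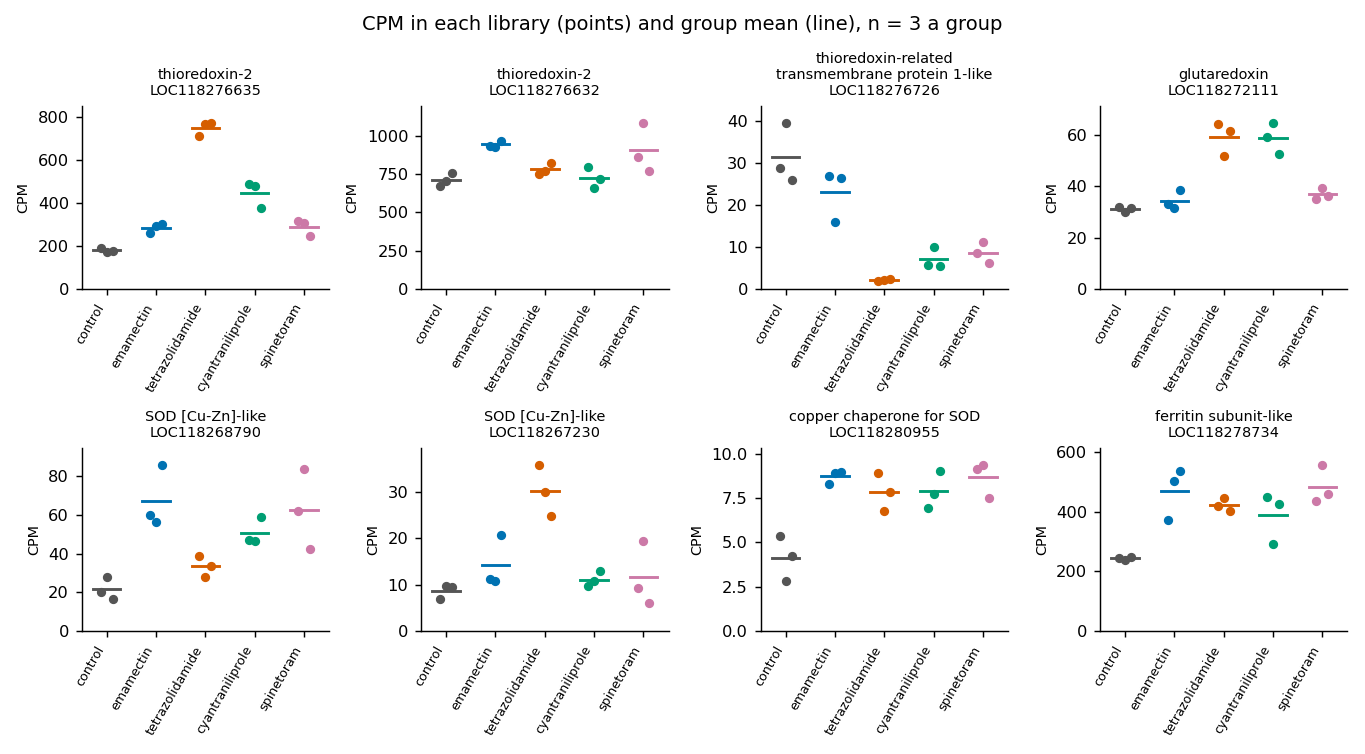
CPM of 8 antioxidant genes in each of the 15 libraries (points) with the group mean (line), 3 libraries a group, each axis starting at 0. The tetrazolidamide points of thioredoxin-2 LOC118276635 lie between 711 and 774 CPM against 172 to 189 in control, while those of LOC118276632 overlap control.

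Catalase, which splits hydrogen peroxide, was represented by 1 abundant gene and 2 clusters of low ones. The abundant gene (LOC118262513) stood at 785, 1424 and 1902 CPM in control and 1035, 1417 and 1746 with emamectin benzoate. In the tetrazolidamide libraries it was 1194, 906 and 437, in those of cyantraniliprole 1863, 1242 and 1309 and in those of spinetoram 1033, 1556 and 1010.4 CPM. Libraries of every treatment overlapped control. Its log2 fold changes were 0.03 (SE 0.39, adjusted p = 0.985), -0.70 (SE 0.39, adjusted p = 0.222), 0.10 (SE 0.39, adjusted p = 0.915) and -0.19 (SE 0.39, adjusted p = 0.822) in the order emamectin benzoate, tetrazolidamide, cyantraniliprole and spinetoram. The control libraries themselves ran from 785 to 1902 CPM.

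A cluster of 11 catalase-like genes lies on one strand at NC_049712.1:15230499-15301415, over 70917 bp, and gave at most 4.13% of the summed catalase FPKM in any library. Its summed level was 28.3, 18.1 and 16.6 CPM in control, and 3.74, 4.64 and 1.32 with emamectin benzoate. It was 2.44, 6.75 and 4.08 with tetrazolidamide, 13.3, 5.92 and 11.6 with cyantraniliprole and 10.4, 5.76 and 28.1 with spinetoram. All emamectin benzoate and tetrazolidamide libraries were below every control, the cyantraniliprole libraries were also below them, and spinetoram overlapped them. Of the 11 genes, 2 passed the test in at least 1 comparison with control, where 24.9% of all tested genes did. LOC118262151, the most abundant of the cluster, stood at 14.2, 8.503 and 7.57 CPM in control and 0.601, 0.696 and 0.382 with emamectin benzoate. For tetrazolidamide, cyantraniliprole and spinetoram in turn it was 1.505, 2.97 and 2.895, then 5.34, 1.12 and 3.42, then 1.46, 2.03 and 10.99 CPM. It was lower with emamectin benzoate at -4.17 (SE 0.81, adjusted p = 0.021), and with tetrazolidamide it was at -2.04 (SE 0.73, adjusted p = 0.0648). Its neighbour LOC118262153, 1505 bp downstream, stood at 2.78, 2.45 and 0.981 CPM in control and 0.227, 0.147 and 0.132 with emamectin benzoate. Tetrazolidamide gave 0.432, 0.67 and 0.228, cyantraniliprole 0.6503, 0.494 and 0.282 and spinetoram 1.04, 0.306 and 1.601 CPM. It was lower with emamectin benzoate at -3.60 (SE 0.69, adjusted p = 0.0205) and with tetrazolidamide at -2.22 (SE 0.65, adjusted p = 0.0286).

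The call for LOC118262151 ended without emamectin benzoate 1 or 3 (adjusted p = 0.0784 to 0.112). That for LOC118262153 ended with emamectin benzoate without control 1 or emamectin benzoate 1, 2 or 3 (adjusted p = 0.0507 to 0.106) and with tetrazolidamide without control 1 or 2 or tetrazolidamide 1 or 3 (adjusted p = 0.0732 to 0.0956). Neighbouring copies of one description can share reads, and how the authors' counting divided those is not given in the sources used here, so the value of a single copy is less certain than the sum. The other cluster, 10 catalase-like genes over 87442 bp of NC_049731.1, had 59 units in all 15 libraries together, from 3 of its genes. None of those units came from the control or tetrazolidamide libraries, and no library held more than 16.

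**Figure D4:**
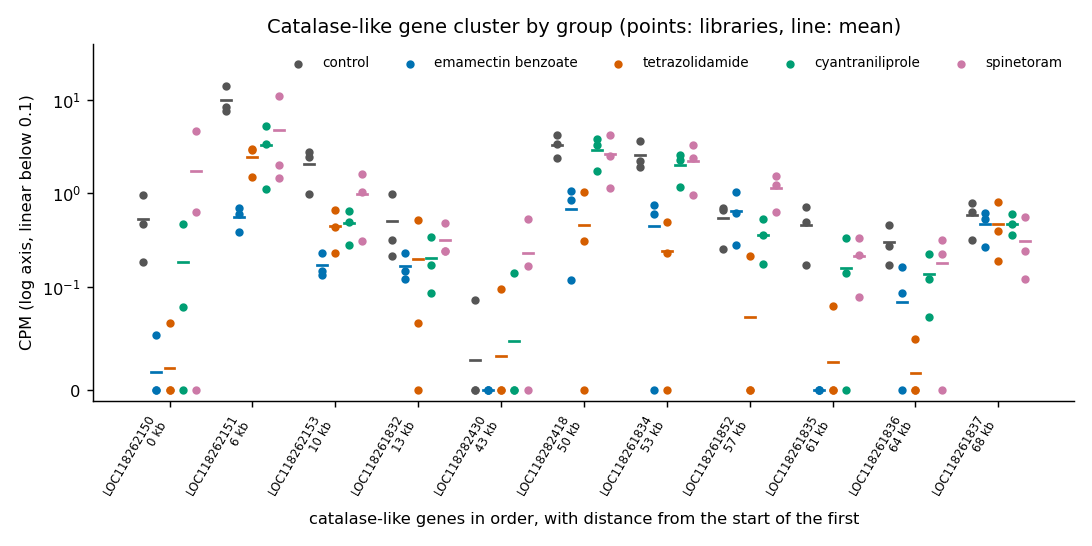
CPM (log axis, linear below 0.1) of the 11 catalase-like genes of the first cluster in their order along the chromosome, with points for libraries and lines for group means. LOC118262151, at 7.57 to 14.2 CPM in control, and LOC118262153 stand below every control in all 3 libraries of emamectin benzoate, tetrazolidamide and cyantraniliprole. Their spinetoram libraries overlap control.

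Neither of the 2 genes described as phospholipid hydroperoxide glutathione peroxidase, an enzyme that reduces lipid peroxides, passed a test. The abundant one (LOC118276187, 89.1 FPKM) stood at 89.4, 96.6 and 76.9 CPM in control and 110.4, 107 and 107 with emamectin benzoate. It was at 99.98, 94.4 and 99.6 with tetrazolidamide, 91.2, 107 and 116 with cyantraniliprole and 110, 125 and 117 with spinetoram. Its largest log2 fold change was 0.42 (SE 0.13, adjusted p = 0.0813) with spinetoram. Of the 7 peroxiredoxins, thiol enzymes that reduce peroxides, 3 were called once each, where 24.9% of all tested genes were called at least once. Peroxiredoxin 1 (LOC118262554) stood at 405, 403 and 402 CPM in control and 493, 504 and 566 with emamectin benzoate. The tetrazolidamide values were 575, 636 and 469, those of cyantraniliprole 453, 506 and 503 and those of spinetoram 543, 584 and 399 CPM. It was called higher with tetrazolidamide at 0.47 (SE 0.16, adjusted p = 0.0487). The libraries of tetrazolidamide, emamectin benzoate and cyantraniliprole all lay above control, and only the first of these was called. Peroxiredoxin-4 (LOC118268238), which works in the endoplasmic reticulum of mammals, stood at 49.4, 40.3 and 36.3 CPM in control and 43.7, 33.9 and 37.4 with emamectin benzoate. With tetrazolidamide the level was 29.2, 28.1 and 27.3, with cyantraniliprole 42.3, 38.9 and 54.9 and with spinetoram 45.6, 34.1 and 52.6 CPM. Its tetrazolidamide libraries lay below all 12 others, at -0.57 (SE 0.19, adjusted p = 0.0488) against control. A peroxiredoxin-2-like gene (LOC118270450) stood at 56.8, 58.1 and 38.96 CPM in control and 33.3, 42.3 and 35.9 with emamectin benzoate. Levels of 46.6, 41.8 and 49.8 were found with tetrazolidamide, 33.1, 28.1 and 32.7 with cyantraniliprole and 45.5, 43.5 and 46.8 with spinetoram. It fell with cyantraniliprole at -0.71 (SE 0.16, adjusted p = 0.0438), with no overlap with control, and the sum with the other gene of that description was at -0.61 (adjusted p = 0.0721). All 3 calls were fragile, ending for peroxiredoxin 1 without any 1 library other than tetrazolidamide 3, spinetoram 2 and spinetoram 3 (adjusted p = 0.0662 to 0.162), for peroxiredoxin-4 without any 1 library other than control 3, cyantraniliprole 2, cyantraniliprole 3, spinetoram 2 and spinetoram 3 (adjusted p = 0.0529 to 0.16) and for LOC118270450 without any 1 library other than control 3 (adjusted p = 0.0507 to 0.15).

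Thioredoxin-2, named after the cytosolic thioredoxin of *Drosophila* that reduces peroxiredoxins and other proteins, had 2 genes in the table, and their values changed differently. LOC118276635 (NC_049732.1:7378351-7405138, minus strand) stood at 189, 172 and 178 CPM in control and 259, 294 and 304 with emamectin benzoate. In the tetrazolidamide libraries it was 711, 767 and 774, in those of cyantraniliprole 486, 477 and 377 and in those of spinetoram 314, 307 and 247 CPM. All 12 treated libraries lay above the controls, with tetrazolidamide highest and cyantraniliprole next, and these groups did not overlap each other. The log2 fold changes were 2.06 (SE 0.14, adjusted p = 1.43e-05) with tetrazolidamide, 1.31 (SE 0.14, adjusted p = 0.00278) with cyantraniliprole, 0.69 (SE 0.14, adjusted p = 0.0232) with spinetoram and 0.67 (SE 0.14, adjusted p = 0.027) with emamectin benzoate. LOC118276632 (NC_049732.1:10222681-10244205, plus strand) stood at 675, 707 and 757 CPM in control and 934, 931 and 969.6 with emamectin benzoate. For tetrazolidamide, cyantraniliprole and spinetoram in turn it was 754, 769 and 821, then 798, 658 and 717, then 862, 1087 and 771 CPM. It did not pass in the 4 comparisons with control. The emamectin benzoate and spinetoram libraries lay above control, at 0.41 (SE 0.14, adjusted p = 0.119) and 0.35 (SE 0.14, adjusted p = 0.173), and those of tetrazolidamide overlapped it, at 0.13 (SE 0.14, adjusted p = 0.532).

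As a share of the summed CPM of the 2 genes, LOC118276635 made up 19.0% to 21.9% in the control libraries, 21.7% to 24.0% with emamectin benzoate, 22.0% to 26.7% with spinetoram, 34.5% to 42.1% with cyantraniliprole and 48.5% to 49.9% with tetrazolidamide. Such a share shows that the genes changed unequally and not that either stood still. Their sum, an alternative chosen after seeing the data, changed by 0.78 (SE 0.13, adjusted p = 0.00175) on the log2 scale with tetrazolidamide, by 0.46 (adjusted p = 0.0662) with emamectin benzoate, by 0.39 (adjusted p = 0.121) with cyantraniliprole and by 0.42 (adjusted p = 0.0845) with spinetoram, so in the sum only the tetrazolidamide call passed. For LOC118276635 alone the tetrazolidamide and cyantraniliprole calls were kept when any 1 library was left out. That for emamectin benzoate ended without control 1 or 2 or emamectin benzoate 1, 2 or 3 (adjusted p = 0.0541 to 0.128) and that for spinetoram without control 2 or spinetoram 1 or 2 (adjusted p = 0.0681 to 0.0992).

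**Figure D5:**
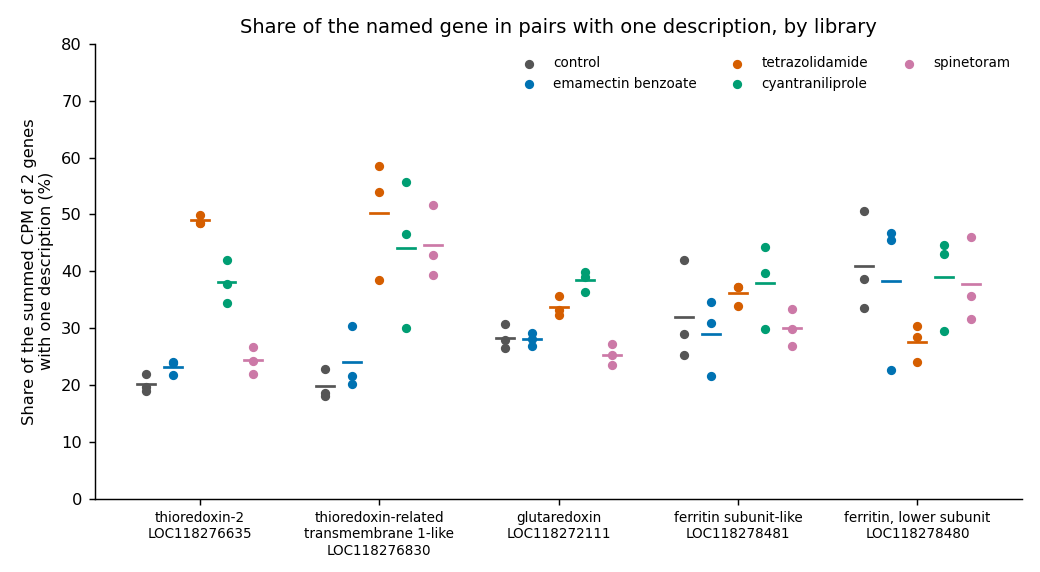
Share of the named gene in the summed CPM of 2 genes with one description, for 5 pairs, by library (points) and group mean (lines). For thioredoxin-2 the share of LOC118276635 is 48.5% to 49.9% with tetrazolidamide and 19.0% to 21.9% in control, while in the lower subunit ferritin pair that of LOC118278480 is 24.0% to 30.3% with tetrazolidamide and 33.6% to 50.7% in control.

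The largest fall among the antioxidant genes called against control with tetrazolidamide was that of a thioredoxin-related transmembrane protein 1-like gene (LOC118276726), whose mammalian relative is a membrane-bound oxidoreductase of the endoplasmic reticulum. It stood at 28.7, 39.5 and 25.9 CPM in control and 26.9, 15.8 and 26.3 with emamectin benzoate. Tetrazolidamide gave 1.85, 2.03 and 2.34, cyantraniliprole 5.69, 10.04 and 5.51 and spinetoram 8.53, 11.04 and 6.07 CPM. The tetrazolidamide libraries lay below all others, those of cyantraniliprole and spinetoram came next, and those of emamectin benzoate overlapped control. The log2 fold changes were -3.92 (SE 0.34, adjusted p = 4.22e-05), -2.15 (SE 0.31, adjusted p = 0.00711) and -1.88 (SE 0.31, adjusted p = 0.0133) for tetrazolidamide, cyantraniliprole and spinetoram, and -0.45 (SE 0.30, adjusted p = 0.463) for emamectin benzoate. The other gene of that description (LOC118276830) stood at 8.45, 8.67 and 5.93 CPM in control and 6.77, 6.89 and 7.26 with emamectin benzoate. It was at 2.16, 2.86 and 1.46 with tetrazolidamide, 4.97, 4.31 and 6.92 with cyantraniliprole and 6.41, 7.16 and 6.49 with spinetoram. Its tetrazolidamide libraries also lay below all others, at -1.83 (SE 0.25, adjusted p = 0.000717). Summed, the pair fell with tetrazolidamide, cyantraniliprole and spinetoram, at -3.20 (adjusted p = 1.94e-05), -1.64 (adjusted p = 0.00469) and -1.36 (adjusted p = 0.0129).

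Each of these genes lies near a thioredoxin-2 gene, LOC118276830 at 124683 bp from LOC118276635 with 5 genes between them and LOC118276726 at 106480 bp from LOC118276632 with 4 between them. In tetrazolidamide the thioredoxin-2 gene called higher and the transmembrane gene that fell furthest thus belong to different neighbourhoods of the same chromosome. These neighbourhoods hold the same descriptions in opposite orientation. They may be copies of the same locus in the assembly, which was not tested. How reads shared by genes with the same description were divided is not given. That limit also applies to the glutaredoxin and ferritin pairs below, so single-gene values are less certain than the sums. The calls with tetrazolidamide and cyantraniliprole were kept without any 1 library, and the spinetoram call of LOC118276726 ended without control 2 (adjusted p = 0.058).

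Of the other thioredoxin-related genes, 3 were called once against control. A gene described as mitochondrial thioredoxin isoform X1 (LOC118267789) stood at 2.26, 1.67 and 2.16 CPM in control and 4.18, 3.48 and 3.38 with emamectin benzoate. The tetrazolidamide values were 3.32, 3.12 and 2.798, those of cyantraniliprole 2.73, 2.898 and 2.06 and those of spinetoram 1.58, 1.51 and 2.04 CPM. Its emamectin benzoate libraries lay above control, at 0.86 (SE 0.21, adjusted p = 0.0442), and the sum with the other gene of that description was at 0.59 (adjusted p = 0.0653). Thioredoxin-like protein 4A (LOC118271109), a spliceosome protein in human and not an antioxidant enzyme, stood at 4.94, 4.78 and 4.84 CPM in control and 4.84, 6.17 and 5.17 with emamectin benzoate. With tetrazolidamide the level was 7.13, 6.41 and 6.702, with cyantraniliprole 5.22, 5.72 and 5.62 and with spinetoram 5.097, 4.103 and 5.25 CPM. The tetrazolidamide libraries lay above control, at 0.48 (SE 0.15, adjusted p = 0.0343). Thioredoxin domain-containing protein 15 (LOC118272057) stood at 2.398, 4.56 and 4.18 CPM in control and 3.75, 3.198 and 3.496 with emamectin benzoate. Levels of 1.49, 2.12 and 1.32 were found with tetrazolidamide, 1.18, 1.98 and 2.46 with cyantraniliprole and 2.74, 2.84 and 3.43 with spinetoram. The tetrazolidamide libraries lay below control, at -1.18 (SE 0.31, adjusted p = 0.0179), and the other gene of that description was at -0.11 (SE 0.18, adjusted p = 0.695). These calls ended without any 1 library other than spinetoram 3 (adjusted p = 0.052 to 0.15) for the first, without any 1 library other than emamectin benzoate 1, emamectin benzoate 2, spinetoram 2 and spinetoram 3 (adjusted p = 0.0542 to 0.124) for the second and without control 2 or tetrazolidamide 1 or 3 (adjusted p = 0.0628 to 0.0669) for the third. The abundant mitochondrial thioredoxin (LOC118272770, 88.5 FPKM) passed no test against control, with log2 fold changes from -0.12 to 0.43.

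Thioredoxin reductase 2 (LOC118267036), which recharges thioredoxin with NADPH, rose with spinetoram. It stood at 104, 100.1 and 91.2 CPM in control and 117, 112 and 119 with emamectin benzoate. In the tetrazolidamide libraries it was 109.6, 113 and 105, in those of cyantraniliprole 114, 139.7 and 143 and in those of spinetoram 142, 148 and 145 CPM. All 12 treated libraries lay above the controls. The log2 fold change was 0.56 (SE 0.12, adjusted p = 0.0242) with spinetoram, 0.43 (SE 0.12, adjusted p = 0.0705) with cyantraniliprole, 0.15 (SE 0.12, adjusted p = 0.371) with tetrazolidamide and 0.24 (SE 0.12, adjusted p = 0.277) with emamectin benzoate, of which only the first passed. That call ended without control 2 or spinetoram 1 or 2 (adjusted p = 0.0585 to 0.0835). The selenoprotein T homolog described as thioredoxin reductase-like (LOC118273218) did not pass either, and its highest log2 fold change was 0.16 (SE 0.13, adjusted p = 0.526) with cyantraniliprole.

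Glutaredoxin was also listed as 2 genes of one description. LOC118272111 stood at 31.9, 29.9 and 31.4 CPM in control and 33.04, 31.4 and 38.6 with emamectin benzoate. For tetrazolidamide, cyantraniliprole and spinetoram in turn it was 64.2, 51.8 and 61.6, then 59.1, 64.9 and 52.5, then 34.98, 39.4 and 36.2 CPM. The tetrazolidamide and cyantraniliprole libraries lay above all others without overlap, at 0.93 (SE 0.13, adjusted p = 0.000828) and 0.92 (SE 0.13, adjusted p = 0.00711), and emamectin benzoate and spinetoram lay near control, at 0.14 (SE 0.13, adjusted p = 0.626) and 0.25 (SE 0.13, adjusted p = 0.302). Both calls were kept when any 1 library was left out. The more abundant gene (LOC118281836, 133 FPKM) stood at 72.2, 77.3 and 87.3 CPM in control and 84.5, 85.7 and 94.01 with emamectin benzoate. Tetrazolidamide gave 116, 108 and 124, cyantraniliprole 89.3, 101 and 92.2 and spinetoram 103, 129 and 96.4 CPM. It was called with tetrazolidamide at 0.56 (SE 0.14, adjusted p = 0.0125), which ended without tetrazolidamide 3 (adjusted p = 0.0577). Summed, the pair was at 0.67 (adjusted p = 0.00386) with tetrazolidamide and 0.48 (adjusted p = 0.0729) with cyantraniliprole, so the cyantraniliprole call was not kept in the sum. The other 4 glutaredoxin genes did not pass against control, and they include glutaredoxin-3 and the mitochondrial glutaredoxin-related protein 5, both tied to iron-sulphur clusters in yeast and human.

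Of the 5 ferritin genes, 3 were called higher with at least 1 treatment, where 24.9% of all tested genes were called in either direction. The 4 abundant ones form 2 head-to-head pairs, LOC118278481 (minus strand) with LOC118278480 (plus strand) 646 bp apart, and LOC118278733 (minus) with LOC118278734 (plus) 612 bp apart, each pair joining 1 gene described as ferritin subunit-like and 1 described as ferritin lower subunit. LOC118278734, subunit-like, stood at 246, 237 and 247 CPM in control and 371, 503 and 535 with emamectin benzoate. It was at 419.9, 444 and 403 with tetrazolidamide, 450.1, 289.7 and 426 with cyantraniliprole and 434, 556 and 459.7 with spinetoram. All 12 treated libraries exceeded the highest control, with log2 fold changes of 0.95 (SE 0.19, adjusted p = 0.0216) with emamectin benzoate, 0.80 (SE 0.18, adjusted p = 0.0095) with tetrazolidamide, 0.68 (SE 0.18, adjusted p = 0.0724) with cyantraniliprole and 0.99 (SE 0.19, adjusted p = 0.0185) with spinetoram, of which the cyantraniliprole value did not pass. Its partner LOC118278733 stood at 214, 208 and 188 CPM in control and 284, 473 and 413 with emamectin benzoate. The tetrazolidamide values were 349, 397 and 362, those of cyantraniliprole 292, 236 and 385 and those of spinetoram 291, 412 and 438 CPM. Again all 12 treated libraries were above the controls, with calls for emamectin benzoate at 0.94 (SE 0.23, adjusted p = 0.0415), tetrazolidamide at 0.86 (SE 0.22, adjusted p = 0.0169) and spinetoram at 0.90 (SE 0.23, adjusted p = 0.0459).

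In the other pair the control libraries were spread more widely. LOC118278481, subunit-like, stood at 101, 79.7 and 178 CPM in control and 197, 138 and 239 with emamectin benzoate. With tetrazolidamide the level was 250.1, 263 and 207, with cyantraniliprole 296, 230.3 and 182 and with spinetoram 218, 203 and 195 CPM. It was called with tetrazolidamide only, at 1.01 (SE 0.29, adjusted p = 0.0276). Every library of tetrazolidamide, cyantraniliprole and spinetoram lay above the highest control, and those of emamectin benzoate overlapped control. LOC118278480, a lower subunit gene, stood at 134, 105 and 193 CPM in control and 249.5, 138 and 346 with emamectin benzoate. Levels of 152, 125 and 143 were found with tetrazolidamide, 236, 178 and 161 with cyantraniliprole and 248, 228 and 203 with spinetoram. Its spinetoram libraries lay above every control and the other treatments overlapped control. It passed no test, at 0.76 (SE 0.30, adjusted p = 0.181) with emamectin benzoate, -0.04 (SE 0.30, adjusted p = 0.944) with tetrazolidamide, 0.41 (SE 0.30, adjusted p = 0.474) with cyantraniliprole and 0.65 (SE 0.30, adjusted p = 0.236) with spinetoram. Summed over the 2 genes of each description, an alternative chosen after seeing the data, the subunit-like ferritins were higher with all 4 treatments. The sums were at 0.87 (adjusted p = 0.0241), 0.87 (adjusted p = 0.00437), 0.79 (adjusted p = 0.0366) and 0.93 (adjusted p = 0.0187) in the order above. With cyantraniliprole neither subunit-like gene passed alone. The lower subunit genes were at 0.87 (adjusted p = 0.0181), 0.55 (adjusted p = 0.0265), 0.51 (adjusted p = 0.102) and 0.80 (adjusted p = 0.0228). The fifth, a ferritin heavy chain-like gene (LOC118263380), lay at 0.317 FPKM with no call.

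For LOC118278734 the tetrazolidamide call was kept without any 1 library, the emamectin benzoate call ended without control 1 or 2 or emamectin benzoate 2 or 3 (adjusted p = 0.0528 to 0.113) and the spinetoram call without control 2 or spinetoram 2 (adjusted p = 0.0588 to 0.0817). For LOC118278733 the calls ended with tetrazolidamide without control 3 (adjusted p = 0.0595), with emamectin benzoate without any 1 library other than emamectin benzoate 1, cyantraniliprole 2, cyantraniliprole 3, spinetoram 1 and spinetoram 3 (adjusted p = 0.052 to 0.152) and with spinetoram without any 1 library other than emamectin benzoate 1 (adjusted p = 0.0517 to 0.142). That of LOC118278481 ended without control 1 or 2 or tetrazolidamide 1 or 2 (adjusted p = 0.0731 to 0.108).

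The 19 heme and other peroxidases, of which 11 could be tested, had mean levels of at most 24 FPKM. The highest (LOC118262077, 24 FPKM) stood at 82.9, 42.7 and 6.36 CPM in control and 144, 21.9 and 56.7 with emamectin benzoate. In the tetrazolidamide libraries it was 12.4, 12.5 and 57.3, in those of cyantraniliprole 35.96, 26.5 and 100.2 and in those of spinetoram 25.8, 1.46 and 86.7 CPM. All groups overlapped, and it passed no test. The next, also peroxidase-like (LOC118261998, 8.77 FPKM) and named after its values were seen, stood at 10.1, 16.9 and 14.5 CPM in control and 32.6, 17.8 and 22.5 with emamectin benzoate. For tetrazolidamide, cyantraniliprole and spinetoram in turn it was 32.1, 21.4 and 20.9, then 19.3, 12.3 and 13.3, then 22.9, 24.99 and 17.8 CPM. Its emamectin benzoate, tetrazolidamide and spinetoram libraries lay above every control but did not pass, at 0.81 (SE 0.28, adjusted p = 0.128), 0.84 (SE 0.28, adjusted p = 0.0508) and 0.66 (SE 0.28, adjusted p = 0.203). A gene described as peroxidase (LOC118269934) stood at 65.95, 30.2 and 156 CPM in control and 1.15, 8.28 and 0.588 with emamectin benzoate. Tetrazolidamide gave 15.8, 11.2 and 17.9, cyantraniliprole 65.4, 131 and 26.2 and spinetoram 34.2, 5.91 and 76.5 CPM. All emamectin benzoate libraries lay below every control, at -4.65 (SE 1.18, adjusted p = 0.0479), and so did the tetrazolidamide libraries, at -2.49 (SE 1.07, adjusted p = 0.115), which did not pass. The emamectin benzoate call ended without any 1 library other than emamectin benzoate 2, spinetoram 2 and spinetoram 3 (adjusted p = 0.0545 to 0.165). A chorion peroxidase-like gene (LOC118276246), named after an enzyme that hardens the mosquito eggshell, stood at 4.18, 5.45 and 5.19 CPM in control and 8.78, 10.05 and 10.4 with emamectin benzoate. It was at 10.3, 13.4 and 11.4 with tetrazolidamide, 8.79, 10.2 and 7.79 with cyantraniliprole and 11.8, 10.8 and 4.22 with spinetoram. It was higher with tetrazolidamide at 1.24 (SE 0.30, adjusted p = 0.0119) and kept that call without any 1 library. Its emamectin benzoate and cyantraniliprole libraries also lay above the controls, at 0.98 (SE 0.30, adjusted p = 0.0902) and 0.85 (SE 0.30, adjusted p = 0.143), which did not pass. Of 58 genes described as eggshell proteins, 42 were at 0 in all 15 libraries and the summed level of the list reached at most 1.13 CPM.

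Tetrazolidamide was set against the mean of the other 3 treatments to ask where it differed from them. This comparison was chosen because earlier results of these data showed the tetrazolidamide libraries apart from the rest. No other treatment was compared in this way, so the counts do not show that tetrazolidamide stands apart. Of the 71 antioxidant genes, 12 differed, 7 higher and 5 lower, where 19.1% of all tested genes did (9.62% higher and 9.44% lower). The count was 4 without tetrazolidamide 1 and 6 without tetrazolidamide 3. Thioredoxin-2 LOC118276635 was higher at 1.17 (SE 0.11, adjusted p = 4.03e-05), superoxide dismutase LOC118267230 at 1.3 (SE 0.29, adjusted p = 0.00911) and glutaredoxin LOC118272111 at 0.49 (SE 0.11, adjusted p = 0.00736). Lower were the transmembrane genes LOC118276726 at -2.43 (SE 0.29, adjusted p = 0.000257) and LOC118276830 at -1.55 (SE 0.22, adjusted p = 0.000793), peroxiredoxin-4 at -0.59 (SE 0.16, adjusted p = 0.0238), and the superoxide dismutases LOC118266989 at -0.93 (SE 0.21, adjusted p = 0.0103) and LOC118268790 at -0.84 (SE 0.23, adjusted p = 0.0259). The remaining 4 were all higher, and comprised peroxidase LOC118269917 at 1.61 (adjusted p = 0.0372), mitochondrial thioredoxin LOC118272770 at 0.42 (adjusted p = 0.0438), glutaredoxin-3 LOC118269998 at 0.38 (adjusted p = 0.0437) and thioredoxin-like protein 4A at 0.37 (adjusted p = 0.0449). The copper chaperone, at -0.10 (SE 0.17, adjusted p = 0.737), and the ferritin LOC118278734, at -0.08 (SE 0.15, adjusted p = 0.782), did not pass in this comparison.

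Calls of LOC118276635, LOC118276726 and LOC118276830 in that comparison were kept without any 1 library. They ended for LOC118267230 without tetrazolidamide 1 (adjusted p = 0.0548), for LOC118272111 without tetrazolidamide 1 (adjusted p = 0.0549), for LOC118266989 without tetrazolidamide 1 or 3 (adjusted p = 0.0523 to 0.058), for LOC118268790 without tetrazolidamide 1, 2 or 3 (adjusted p = 0.05 to 0.108) and for peroxiredoxin-4 without tetrazolidamide 1, 2 or 3 (adjusted p = 0.0644 to 0.0809). Those of the last 4 genes ended without emamectin benzoate 2 or 3, tetrazolidamide 1 or 3, cyantraniliprole 2 or 3 or spinetoram 2 (adjusted p = 0.0545 to 0.362) for LOC118269917, without any 1 library other than control 1, control 3, emamectin benzoate 3 and spinetoram 2 (adjusted p = 0.0636 to 0.175) for LOC118272770, without any 1 library other than control 1, emamectin benzoate 2 and spinetoram 1 (adjusted p = 0.0553 to 0.146) for glutaredoxin-3 and without any 1 library other than emamectin benzoate 2 (adjusted p = 0.0561 to 0.188) for thioredoxin-like protein 4A.

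Genes around these enzymes were read from lists of descriptions. In insects the transcription factor cap'n'collar, held back by Keap1 and paired with a small Maf protein, switches on many antioxidant genes. Of the 3 regulators found, MafK (LOC118276889) rose with cyantraniliprole, at 28.5 ± 3.98 CPM against 14.3 ± 3.16 (mean ± SD, n = 3) and 0.99 (SE 0.17, adjusted p = 0.0169) on the log2 scale, and with spinetoram at 0.87 (SE 0.17, adjusted p = 0.0232). The cap'n'collar-like gene (LOC118281287) stood at 66.7 ± 22.9 CPM against 30.7 ± 6.98 with cyantraniliprole, 1.12 (SE 0.31, adjusted p = 0.0751), and Keap1 (LOC118261881) at 0.71 (SE 0.43, adjusted p = 0.381), and neither passed. The MafK calls ended with cyantraniliprole without control 1 or 2 or cyantraniliprole 1 or 3 (adjusted p = 0.0505 to 0.0796) and with spinetoram without control 1 or 2 or spinetoram 1 or 2 (adjusted p = 0.0504 to 0.0997).

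Among 10 genes of glutathione supply, tetrazolidamide had 2 higher and 2 lower, where 10.9% of all tested genes were higher and 11.4% lower. The catalytic subunit of glutamate-cysteine ligase (LOC118262750), the first enzyme of glutathione synthesis, rose to 55.3 ± 8.25 CPM against 25.5 ± 5.99, 1.12 (SE 0.21, adjusted p = 0.00351). S-formylglutathione hydrolase (LOC118262260), which acts in formaldehyde removal and was caught by the list's pattern, fell to 48.5 ± 3.02 CPM against 93.1 ± 8.58, -0.94 (SE 0.20, adjusted p = 0.00578). A glutathione hydrolase 6-like gene (LOC118273352) also fell, at -1.35 (SE 0.30, adjusted p = 0.00769). Genes described as glutathione hydrolase 1 proenzyme-like, which break down glutathione outside the cell, made up the other calls. LOC118268919 was higher with tetrazolidamide at 0.76 (SE 0.21, adjusted p = 0.0211) and with spinetoram at 1.02 (SE 0.21, adjusted p = 0.0237). LOC118268918 was higher with spinetoram at 0.91 (SE 0.21, adjusted p = 0.0361) and with emamectin benzoate at 0.83 (SE 0.21, adjusted p = 0.0488). These calls ended for LOC118268919 with tetrazolidamide without control 2 or tetrazolidamide 3 (adjusted p = 0.0717 to 0.0979) and with spinetoram without control 2 or spinetoram 1 or 2 (adjusted p = 0.055 to 0.081), and for LOC118268918 with spinetoram without any 1 library other than control 1, control 3, emamectin benzoate 1, tetrazolidamide 2, tetrazolidamide 3 and cyantraniliprole 1 (adjusted p = 0.0532 to 0.116) and with emamectin benzoate without any 1 library (adjusted p = 0.0525 to 0.177).

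Of 6 genes of repair and other redox functions, 1 was higher and 2 were lower with tetrazolidamide, against those shares of 10.9% and 11.4%. Putative sulfiredoxin (LOC118262923), which restores overoxidised peroxiredoxin, rose with tetrazolidamide to 21.8 ± 4.31 CPM against 10.2 ± 3.14, 1.09 (SE 0.26, adjusted p = 0.0112), a call that ended without tetrazolidamide 1 (adjusted p = 0.0558). A dj-1beta-like gene (LOC118280308), whose *Drosophila* relative protects against oxidative damage, fell with tetrazolidamide at -0.91 (SE 0.16, adjusted p = 0.00206) and with cyantraniliprole at -0.89 (SE 0.16, adjusted p = 0.0167), and was higher with emamectin benzoate at 0.75 (SE 0.16, adjusted p = 0.0267). The other dj-1beta-like gene (LOC118280343) fell with tetrazolidamide at -0.89 (SE 0.28, adjusted p = 0.0381), which ended without control 1 or 2, emamectin benzoate 1 or tetrazolidamide 1 or 3 (adjusted p = 0.0522 to 0.159), and was at -1.07 (SE 0.28, adjusted p = 0.0541) with spinetoram. The calls of LOC118280308 ended with cyantraniliprole without control 2 or cyantraniliprole 1 (adjusted p = 0.0548 to 0.0604) and with emamectin benzoate without control 1, 2 or 3 or emamectin benzoate 1 or 3 (adjusted p = 0.0535 to 0.114).

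Of 23 tested oxidant sources, 4 were higher and 4 lower with tetrazolidamide, where 10.9% and 11.4% of all tested genes were. Both dual oxidase maturation factor genes, which bring the peroxide-making dual oxidase to the cell surface, rose, LOC118268770 to 35.7 ± 12.7 CPM against 7.19 ± 1.76 at 2.31 (SE 0.38, adjusted p = 0.00171) and LOC118269230 to 51.2 ± 19.3 CPM against 14.1 ± 2.26 at 1.86 (SE 0.33, adjusted p = 0.00226). The other 6 called genes, 2 higher and 4 lower, were described as like xanthine dehydrogenase, which can make superoxide. In the iron list of 12 genes, 3 were higher and 1 lower with tetrazolidamide, against the same shares of all genes. Of the iron carrier transferrin, 2 transferrin-like genes rose, LOC118278499 to 116 ± 25.97 CPM against 21.96 ± 12.7 at 2.40 (SE 0.48, adjusted p = 0.00419) and LOC118278820 to 52.2 ± 5.17 CPM against 12.7 ± 0.884 at 2.04 (SE 0.32, adjusted p = 0.00121), and melanotransferrin (LOC118270791) fell at -0.93 (SE 0.23, adjusted p = 0.0128). Both transferrin-like genes were also higher with emamectin benzoate, at 1.92 (SE 0.47, adjusted p = 0.0425) and 1.38 (SE 0.31, adjusted p = 0.0341), and LOC118278820 with cyantraniliprole, at 1.55 (SE 0.31, adjusted p = 0.027). Those 3 calls ended without any 1 library other than control 1, emamectin benzoate 2, cyantraniliprole 1, cyantraniliprole 3, spinetoram 2 and spinetoram 3 (adjusted p = 0.0539 to 0.167), without control 1, 2 or 3, emamectin benzoate 1 or 3 or tetrazolidamide 1 (adjusted p = 0.0512 to 0.107) and without control 1 or 2 or cyantraniliprole 1, 2 or 3 (adjusted p = 0.0578 to 0.108). The words of that list also caught 2 pyruvate dehydrogenase regulators and 4 CNNM4-like metal transporters, which the list was not meant for. The regulator LOC118280114 was the remaining gene higher with tetrazolidamide, at 1.52 (SE 0.26, adjusted p = 0.00203). Of 10 tested genes of NADPH supply, 1 was lower with tetrazolidamide, cytoplasmic isocitrate dehydrogenase (LOC118262464) at -0.73 (SE 0.21, adjusted p = 0.023), which ended without control 3 or tetrazolidamide 2 or 3 (adjusted p = 0.0588 to 0.0835).

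Markers of several tissues differed between groups. Of 155 tested cuticle genes, 73 were higher and 5 lower with tetrazolidamide, where 10.9% of all tested genes were higher and 11.4% lower. With spinetoram 17 were higher, and with emamectin benzoate and with cyantraniliprole 8 each, where 2.89%, 2.31% and 1.99% of all tested genes were. The summed level of the cuticle list ran from 22471 to 34364 CPM in control, from 49929 to 67014 with tetrazolidamide and from 41569 to 44436 with emamectin benzoate, both above every control. It ran from 30103 to 48596 with spinetoram and from 27875 to 30540 with cyantraniliprole, both overlapping control. Of 9 midgut and peritrophic matrix genes, 4 were higher with tetrazolidamide, 1 with cyantraniliprole and 1 with spinetoram. Their summed level ran from 51.6 to 374 CPM in control, 349 to 617 with emamectin benzoate, 237 to 1319 with tetrazolidamide, 752 to 1097 with cyantraniliprole and 362 to 639 with spinetoram. Of 7 haemocyte genes, 4 were lower with tetrazolidamide, at 91.7 to 121 CPM in sum against 136 to 407. Of 16 fat body genes, 2 were higher and 4 lower with tetrazolidamide, at 1515 to 5246 CPM in sum against 3780.3 to 9530.5, and of 37 testis genes 2 were higher and 1 lower, at 229 to 315 CPM against 212 to 501. The 14 muscle genes summed to 162498 to 250261 CPM with tetrazolidamide and 108732 to 195821 in control, which overlap. The control libraries also differed from each other, with midgut scores (the list's average of log2 CPM after centring each gene) of -2.67, -2.41 and 0.0335 and cuticle scores of 0.737, -1.44 and -1.7. With tetrazolidamide the cuticle scores were 2.03, 1.71 and 2.29, above every control. With emamectin benzoate they were -1.21, -1.11 and -1.78, which overlapped control, so its higher summed level was not matched by the list's average. The cuticle scores of cyantraniliprole and spinetoram overlapped control too. The part of these tissue differences in the values of the antioxidant genes was not tested.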

How the data were processed

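RNA was extracted with TRIzol from whole bodies, poly(A)-selected and made into libraries that mark strand with dUTP, per the labels' protocols. The submitters' processing notes name the trimmer cutadapt 1.9, the aligner HISAT2 2.0.4, the assembler StringTie 1.3.4d and, with no version, DESeq2 and edgeR. The use of strand in counting, the handling of shared reads and the genome build are not given in the sources used here. The authors' deposited table gives, for each gene, estimated counts, whole numbers in which 1 read pair is worth about 3.9 units, and FPKM computed by the authors, with 0.0001 standing for 0.

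The estimated counts were tested with edgeR 4.0.16 in R 4.3.3 (TMM, quasi-likelihood test, filterByExpr with a minimum count of 10). All 15 libraries entered 1 model with the 5 groups, and p-values were adjusted by Benjamini-Hochberg over the 15505 genes left. CPM are on TMM-scaled library sizes, and FPKM was used to compare levels between genes. The differences between replicates were larger than counting noise in every group. The script was tested on simulated counts. Antioxidant genes were named with every library where they were the most abundant of their role or were called against control, up to 8 a role, and others where a small count fell on them or they shared a description or neighbourhood. The genes, the lists and the comparison of tetrazolidamide with the other treatments were chosen with earlier results of these data known. The sums over genes with the same description were chosen after the data were seen. Alternatives were DESeq2 1.42.0, limma 3.58.1 on log2(FPKM + 1) or log2(FPKM + 0.1), DESeq2's size factors, counts divided into read pairs, no filter, a filter of 5 FPKM in 3 libraries, a replicate block, a fit of only the groups compared, each library left out, and genes of one description summed.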

Additional observations from a re-analysis of the deposited data

How the results depend on the processing

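The single-gene calls kept their direction under every alternative in which the gene could be fitted. Of the 39 calls of antioxidant genes against control, all passed with DESeq2, with its size factors and with counts divided into read pairs, 31 did not pass in the fit of only the groups compared, 10 with the replicate block, 7 in each limma fit, 7 without a filter, 3 of 28 under the stricter filter and 7 of 21 with copies summed. The cause was not tested.

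With DESeq2 the numbers of antioxidant genes called were 16, 27, 13 and 13 for emamectin benzoate, tetrazolidamide, cyantraniliprole and spinetoram, 21 for tetrazolidamide against the other treatments and 36 for any difference. Over all genes DESeq2 called 1777 for emamectin benzoate, 1546 for cyantraniliprole, 1889 for spinetoram and 6110 for any difference. The fit of only the groups compared called 0, 9, 0 and 0 antioxidant genes in edgeR (22, 26, 17 and 11 at an unadjusted p under 0.05), and 0, 1742, 0 and 2 of all genes (2543, 4301, 2295 and 2113 at an unadjusted p under 0.05). The stricter filter, which tests fewer genes, gave 6 antioxidant genes for emamectin benzoate and 2276 of all genes for tetrazolidamide.

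The labels do not tell if the replicate numbers pair the samples. Of 30 correlations between same-numbered libraries, 4 exceeded 0.1 (range -0.154 to 0.373). Those between libraries of different number ran from -0.351 to 0.31. With 3 libraries a group, such correlations cannot exclude a pairing. The replicate block gave 6 antioxidant genes for emamectin benzoate and 3 for cyantraniliprole, and 364 of all genes for emamectin benzoate.

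Leaving out 1 library gave 0 to 12 antioxidant genes for emamectin benzoate, 10 to 17 for tetrazolidamide, 3 to 9 for cyantraniliprole, 1 to 9 for spinetoram, 4 to 12 for tetrazolidamide against the other treatments and 12 to 19 for any difference. Over all genes it gave 36 to 725, 2356 to 3426, 76 to 1149, 35 to 1075, 1491 to 3245 and 2050 to 4000 in the same order. With log2(FPKM + 0.1) the median of all genes moved to -0.163 with tetrazolidamide. The biological coefficient of variation was 54.8%. Of the 17 antioxidant genes tested under 1 FPKM 1 was called, and the share of all tested genes at that level was not computed.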
